A study of Homo sapiens with 6 samples.

Results

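The genes described here encode the numbered nucleoporins (NUP), the importins (KPNA, KPNB, IPO), the transportins (TNPO) and the exportins (XPO). They were taken from the deposited expression table by symbol alone, without use of any measured value, and pseudogenes were left out. This group of genes was, however, chosen with earlier results of these data known. This gave 44 of the 23858 listed genes: 21 nucleoporins, 17 importins and transportins, and 6 exportins. Of these, 43 averaged 1 RPKM or more (reads relative to the length of the gene's exons and the depth of the library) over the 6 libraries and were tested, and IPO4 did not pass. RNA was sequenced from NB4, an established human acute promyelocytic leukaemia cell line that carries the PML-RARA fusion. One group of 3 libraries came from control cells and the other from cells exposed to arsenic trioxide for 6 h. This compound is given to patients with that leukaemia, and the labels name no dose. All 6 libraries come from 1 cell line grown in the same medium, and no label says whether replicates were separate cultures, so each p-value rests on the spread among these samples alone, which may be technical.

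The nuclear pore complex is a ring of nucleoporins set in the nuclear envelope, through which all regulated traffic between nucleus and cytoplasm passes. Importins bind cargo in the cytoplasm and release it in the nucleus when they meet the small GTPase Ran in its GTP form, while exportins bind cargo together with Ran-GTP and release it in the cytoplasm. Several of these genes are known in myeloid leukaemia, NUP98 and NUP214 as partners in fusion genes and XPO1 as a drug target.

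The libraries held 19361332 to 22609019 reads counted in genes, as recovered from the RPKM values. At this depth 3 reads per kb of exon equal 0.133 to 0.155 RPKM, which covers counting error only. HMOX1, a heme-degrading enzyme used here to check the treatment, was at 0.662 to 1.23 RPKM in control and 203 to 328 RPKM in treated libraries. Of 8 promyelocyte genes checked, 6 were measured and summed to 1039 to 1435 RPKM in control and 689 to 1041 RPKM in treated libraries, most of it MPO. All 6 had log2 fold changes below 0 (median -0.58), and AZU1 (-0.98 ± 0.12 SE, adjusted p = 0.00258) and MS4A3 (-0.68 ± 0.16 SE, adjusted p = 0.0215) fell. Among markers of other cells, the measured T cell genes were CD3D (3.54 ± 0.279 and 3.48 ± 0.643 RPKM in control and treated, mean ± SD, n = 3 each) and CD4, which myeloid cells also carry. In sum they were at 42.3 to 43.9 RPKM in control and 30.4 to 34.9 RPKM in treated libraries. For B cell markers 3 of 4 were measured, with sums of 5.85 to 5.98 and 7.17 to 7.87 RPKM, and for epithelial markers 2 of 4, with sums of 5.04 to 6.44 and 4.83 to 7.12 RPKM. No measured marker was at 0 in any library. The promyelocyte genes ELANE and KIT, and CD3E, CD3G, CD8A, MS4A1, KRT18, CDH1 and the 4 erythroid genes, were not listed under these symbols. The part of any of these markers in the results below was not tested. In bulk RNA, fewer cells of a kind and less RNA per cell cannot be told apart.

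After 6 h of arsenic trioxide 11 of the 43 tested genes were lower and 1 was higher (limma-trend, Benjamini-Hochberg adjusted p under 0.05 over all 16803 genes tested). Those that fell were the exportins XPO5, XPO6 and XPO1, the transportin TNPO2, the importins IPO7, KPNA3 and KPNA2, and the nucleoporins NUP35, NUP62, NUP85 and NUP133. The gene that rose was XPOT, the exportin of transfer RNA. As a share, 25.6% of the tested pore and carrier genes were lower against 13.4% of all genes tested, and 2.33% were higher against 12.0%. In both directions together 27.9% were called, near the 25.4% of all genes. None of the 43 changed 2-fold on the fitted scale, and the falls were of 17.7% to 37.4% of the control mean. The median log2 fold change was -0.14, against -0.0033 for all tested genes, and 33 of the 43 values (76.7%) were below 0 against 50.3% of all tested genes. By role the median was -0.21 in the exportins, -0.09 in both importin families, -0.16 in the outer ring, -0.23 in the inner ring and -0.03 in the central channel. Since log2 of RPKM + 1 was tested, folds of genes at low levels are understated.

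The groups did not overlap in any of the 12 called genes. These were picked on the same values, so the separation adds no support to the calls. Counting all 43, the treated libraries all lay below the controls in 22 genes, 51.2% where all tested genes gave 22.6%. They all lay above them in 3 genes, 6.98% against 21.9%. The pore and carrier genes are expressed well, and their median standard error of 0.07 on the log2 scale was smaller than the 0.13 of all tested genes. Among genes averaging 5 RPKM or more, 11 of 41 pore and carrier genes (26.8%) were lower against 18.4% of all such genes, and 1 (2.44%) was higher against 14.4%. Whether these shares differ was not tested. The count of lower genes was 8 to 10 (18.6% to 23.3%) when any 1 library was left out. In those fits 8.49% to 11.4% of all genes were lower. By limma-voom on recovered reads it was 18 (41.9%), with 2 higher (4.65%), where 16.3% of all genes were lower and 14.9% higher. Without both control replicate 1 and arsenic trioxide replicate 3 it was 5 (11.6%), near the 8.83% of all genes that were lower in that fit. These 2 libraries stand apart from the others on the second principal component. XPO5, TNPO2, KPNA3, NUP62 and KPNA2 were the 5, and XPO1 (adjusted p = 0.073) and IPO7 (0.107) were among those lost. In that fit, which used fewer libraries, the median log2 fold change of the 43 genes was -0.13, against -0.02 for all tested genes.

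**Figure D1:**
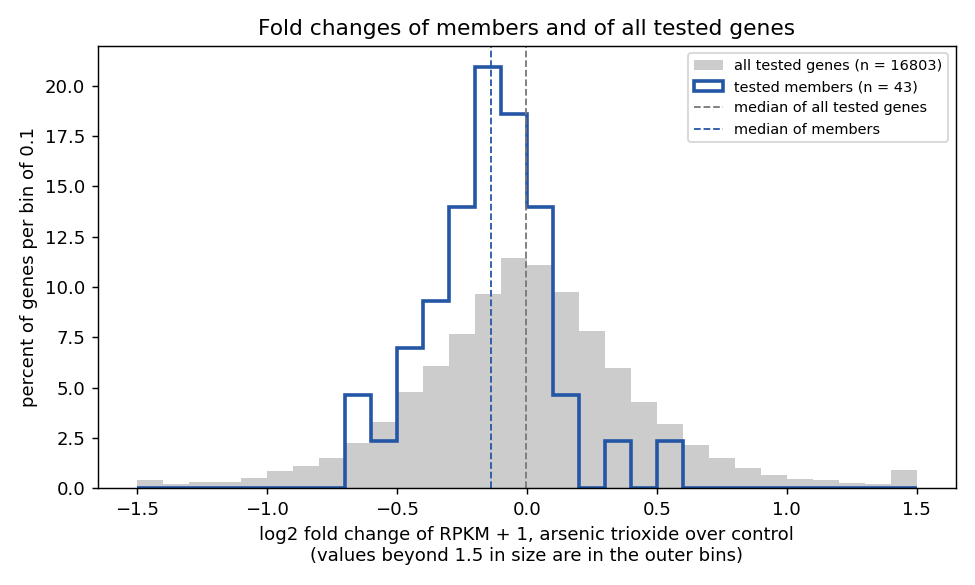
Histogram of the log2 fold change of RPKM + 1, arsenic trioxide over control, as the percent of genes in each bin of 0.1, for all 16803 tested genes (grey) and the 43 tested pore and carrier genes (blue line), with dashed lines at the medians. The pore and carrier genes lie between -0.66 and 0.55 and their median is -0.14, while that of all tested genes is -0.0033.

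Promoter windows of 300 bases, from 250 before to 50 after the start, were found for 38 of the 43 tested genes in RefSeq (GRCh38.p14), 50 windows in all since some genes have several starts. Motifs were searched on both strands as letters only, and none of them contains another. The E-box CACGTG was in 6 of the 50 windows (12.0%) and in 9.70% of the windows of all tested genes. Of the 13 windows of genes that fell 4 held it, those of KPNA3, TNPO2, IPO7 and XPO1. TGACNNNGC, the core letters of the antioxidant response element, was in 10 windows (20.0%, against 14.8%), among them those of XPOT and of 5 of the genes that fell: XPO5, KPNA3, KPNA2, NUP133 and XPO1. CCAAT was in 24 windows (48.0% against 35.2%), the palindromic site of nuclear respiratory factor 1 in 3 (6.0% against 2.09%) and TGATGNAA in 1 (2.0% against 1.93%). These are matches of letters, given as a description, and no binding was measured. The 250 bases before the start follow for XPOT, the gene that rose, for XPO5, which has the lowest fitted log2 fold change and shares a motif with it, and for KPNA3, TNPO2 and IPO7, which fell and share the E-box. Each is written 5′ to 3′ on the strand of its gene with its matches in capitals.
XPOT (chr12:64404142-64404391, plus strand): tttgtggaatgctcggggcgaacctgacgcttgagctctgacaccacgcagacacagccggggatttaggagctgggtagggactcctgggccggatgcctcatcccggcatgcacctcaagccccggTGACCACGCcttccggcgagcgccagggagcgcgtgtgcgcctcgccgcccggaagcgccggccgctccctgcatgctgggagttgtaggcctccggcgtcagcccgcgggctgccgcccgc
XPO5 (chr6:43576039-43576288, minus strand): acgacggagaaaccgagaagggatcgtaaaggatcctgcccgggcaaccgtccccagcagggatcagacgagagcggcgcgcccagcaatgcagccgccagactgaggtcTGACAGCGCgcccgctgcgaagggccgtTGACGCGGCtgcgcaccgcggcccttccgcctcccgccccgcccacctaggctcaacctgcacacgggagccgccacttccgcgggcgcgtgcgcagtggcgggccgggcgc
KPNA3 (chr13:49792683-49792932, minus strand): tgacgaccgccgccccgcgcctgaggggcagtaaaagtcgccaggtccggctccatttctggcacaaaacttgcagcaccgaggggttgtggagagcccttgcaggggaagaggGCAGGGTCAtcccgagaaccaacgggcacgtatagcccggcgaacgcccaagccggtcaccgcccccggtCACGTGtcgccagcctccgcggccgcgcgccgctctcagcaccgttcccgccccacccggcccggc
TNPO2 (chr19:12723933-12724182, minus strand): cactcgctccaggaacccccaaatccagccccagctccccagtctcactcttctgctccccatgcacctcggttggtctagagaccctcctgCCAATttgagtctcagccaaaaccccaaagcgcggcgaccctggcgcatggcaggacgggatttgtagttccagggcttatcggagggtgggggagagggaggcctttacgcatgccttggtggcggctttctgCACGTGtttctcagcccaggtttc
IPO7 (chr11:9384402-9384651, plus strand): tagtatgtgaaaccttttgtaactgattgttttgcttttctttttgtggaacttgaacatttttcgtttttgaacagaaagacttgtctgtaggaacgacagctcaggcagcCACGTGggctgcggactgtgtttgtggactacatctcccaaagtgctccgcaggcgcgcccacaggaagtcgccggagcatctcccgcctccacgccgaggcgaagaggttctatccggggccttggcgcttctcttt

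The match in XPOT began 122 bases before the start and those in XPO5 at 140 and 112 bases. The E-box began 66 bases before the start in KPNA3, 24 in TNPO2 and 138 in IPO7. KPNA3 also holds TGACNNNGC, read on the other strand, and TNPO2 holds CCAAT.

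Among the exportins, 3 of 6 fell and 1 rose. For comparison, 13.4% of all tested genes fell and 12.0% rose. At a mean of 5 RPKM or more these shares of all tested genes were 18.4% and 14.4%. XPOT carries mature transfer RNA out of the nucleus (chromosome 12, 64404350 to 64451127, GRCh38). It was at 64.2, 65.6 and 64.0 RPKM in the control libraries, replicates 1, 2 and 3 in that order, and at 92.9, 102 and 89.8 RPKM in the treated ones. All treated libraries lay above all controls, and the level went from 64.6 ± 0.891 to 94.9 ± 6.32 RPKM (a fitted log2 fold change of 0.55 ± 0.06 SE with an adjusted p of 0.00176 by limma-trend). XPO5 exports hairpin precursors of microRNAs (chromosome 6, 43522330 to 43576075). It was at 48.4, 45.1 and 42.9 RPKM in the control libraries and at 30.6, 29.0 and 25.8 RPKM in the treated ones. Here the order was the opposite, with the lowest control well above the highest treated library (a fitted log2 fold change of -0.66 ± 0.08 SE with an adjusted p of 0.00232 by limma-trend), the lowest value among the 43 genes on that scale. In plain RPKM the mean of NUP210L, not called, was lower by more than that of XPO5 (fold of 0.520 against 0.626). XPOT and XPO5 both hold TGACNNNGC before their starts. XPO6 exports actin bound to profilin and was at 50.5, 51.9 and 50.9 RPKM in the control libraries and at 43.6, 39.6 and 38.9 RPKM in the treated ones. The groups were again apart (-0.32 ± 0.06 SE, adjusted p = 0.00957).

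XPO1, also called CRM1, exports proteins with a leucine-rich export signal and many RNA complexes. It was at 65.2, 64.2 and 64.4 RPKM in the control libraries and at 52.4, 57.0 and 50.2 RPKM in the treated ones. The controls were closely spaced and all treated libraries lay below them (-0.28 ± 0.06 SE, adjusted p = 0.0161). Leaving out control replicate 2 (adjusted p = 0.0514), control replicate 3 (0.051) or arsenic trioxide replicate 1 (0.0529) ended that call. XPO4, which exports the translation factor eIF5A, and XPO7, an exportin with broad cargo, were not called (-0.13, adjusted p = 0.275, and -0.14, adjusted p = 0.158). The calls of XPOT and XPO5 held under every alternative listed in the closing section, while that of XPO6 was lost without both libraries that stand apart (0.0507).

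The importin beta family holds the carriers that bind the pore themselves. In it 2 of 10 tested genes fell (20.0%, against 13.4% of all tested genes) and none rose (against 12.0%). Of all genes averaging 5 RPKM or more, 18.4% fell and 14.4% rose. TNPO2, a transportin for RNA-binding proteins (chromosome 19, 12699194 to 12724011), was at 41.2, 34.1 and 32.6 RPKM in the control libraries and at 24.3, 21.7 and 22.7 RPKM in the treated ones. Control replicate 1 was the highest library and the groups were well apart (a fitted log2 fold change of -0.62 ± 0.10 SE with an adjusted p of 0.00517 by limma-trend). IPO7, an importin of ribosomal proteins and other basic cargo (chromosome 11, 9384622 to 9448126), was at 94.9, 87.8 and 85.3 RPKM in the control libraries and at 69.7, 78.2 and 69.9 RPKM in the treated ones. The groups were separate, with arsenic trioxide replicate 2 nearest to the controls (-0.30 ± 0.07 SE, adjusted p = 0.0219). It missed the threshold when control replicate 1 (adjusted p = 0.0595), control replicate 2 (0.0584), arsenic trioxide replicate 1 (0.0702) or arsenic trioxide replicate 3 (0.0603) was left out.

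IPO11, which imports ubiquitin-conjugating enzymes, had groups that did not overlap but was not called (-0.30 ± 0.09 SE, adjusted p = 0.0563). It was at 11.2, 11.4 and 11.5 RPKM in the control libraries and at 9.63, 9.72 and 7.88 RPKM in the treated ones, with the lowest value in arsenic trioxide replicate 3. It was called with the filter at 5 RPKM (0.0417) and with limma-voom on recovered reads (0.0168). KPNB1, the beta subunit that carries importin alpha and its cargo through the pore, was among the most abundant of these genes. It was at 116, 109.7 and 114 RPKM in the control libraries and at 115, 112 and 99.4 RPKM in the treated ones. These ranges overlapped, and only arsenic trioxide replicate 3 lay below all controls (-0.06 ± 0.07 SE, adjusted p = 0.545). TNPO3, which imports splicing factors of the SR family, had treated libraries that all lay above the controls (47.0 ± 1.70 and 52.2 ± 1.84 RPKM, 0.15 ± 0.05 SE, adjusted p = 0.0854). It was called higher only with upper quartile factors (0.0458).

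The remaining tested carriers of this family were not called. Their log2 fold changes were -0.16 for IPO13, which carries cargo in both directions, -0.09 for IPO8, -0.08 for IPO5, an importin of ribosomal proteins and histones, 0.0050 for IPO9, a histone importin, and 0.10 for TNPO1, the close relative of TNPO2. Groups overlapped in each of these genes. IPO4, another histone importin, was listed at 0.116 to 0.494 RPKM from 13 to 50 reads per library and was not tested. The annotation places 70.1% of its exon bases within exons of other genes. If reads on such bases were left out of the counts, which the processing notes do not say, its RPKM is understated.

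Importin alpha proteins recognise the classical nuclear localisation signal and bind importin beta. Of the 6 tested genes 2 fell (33.3%, against 13.4% of all tested genes) and none rose (against 12.0%). Of all genes averaging 5 RPKM or more, 18.4% fell and 14.4% rose. KPNA3 (chromosome 13, 49699307 to 49792921) was at 48.9, 48.2 and 51.1 RPKM in the control libraries and at 36.2, 36.8 and 37.5 RPKM in the treated ones. The spread within each group was small beside the gap between them (a fitted log2 fold change of -0.41 ± 0.05 SE with an adjusted p of 0.00236 by limma-trend). KPNA2, an importin alpha abundant in dividing cells (chromosome 17, 68035519 to 68046842), had the highest mean level of all 44 genes. It was at 151, 128 and 126 RPKM in the control libraries and at 106, 108 and 114 RPKM in the treated ones, with control replicate 1 above the other controls (-0.30 ± 0.08 SE, adjusted p = 0.0339).

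KPNA2 was not called with upper quartile factors (adjusted p = 0.0544) or when 1 library was left out, whether control replicate 1 (0.0522) or 2 (0.0596) or any of the 3 treated ones (0.0953, 0.0938 and 0.0519). KPNA5 was the least expressed tested carrier, at 2.18, 2.25 and 1.72 RPKM in the control libraries and at 2.42, 2.98 and 3.10 RPKM in the treated ones. Treated libraries all lay above the controls, but it was not called (0.33 ± 0.14 SE, adjusted p = 0.127), except with limma-voom on recovered reads (0.0199). KPNA1, KPNA4 and KPNA6 were not called, with log2 fold changes of -0.08, 0.09 and -0.09. The groups overlapped in KPNA1 and KPNA4, and in KPNA6 the treated libraries lay below the controls.

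**Figure D2:**
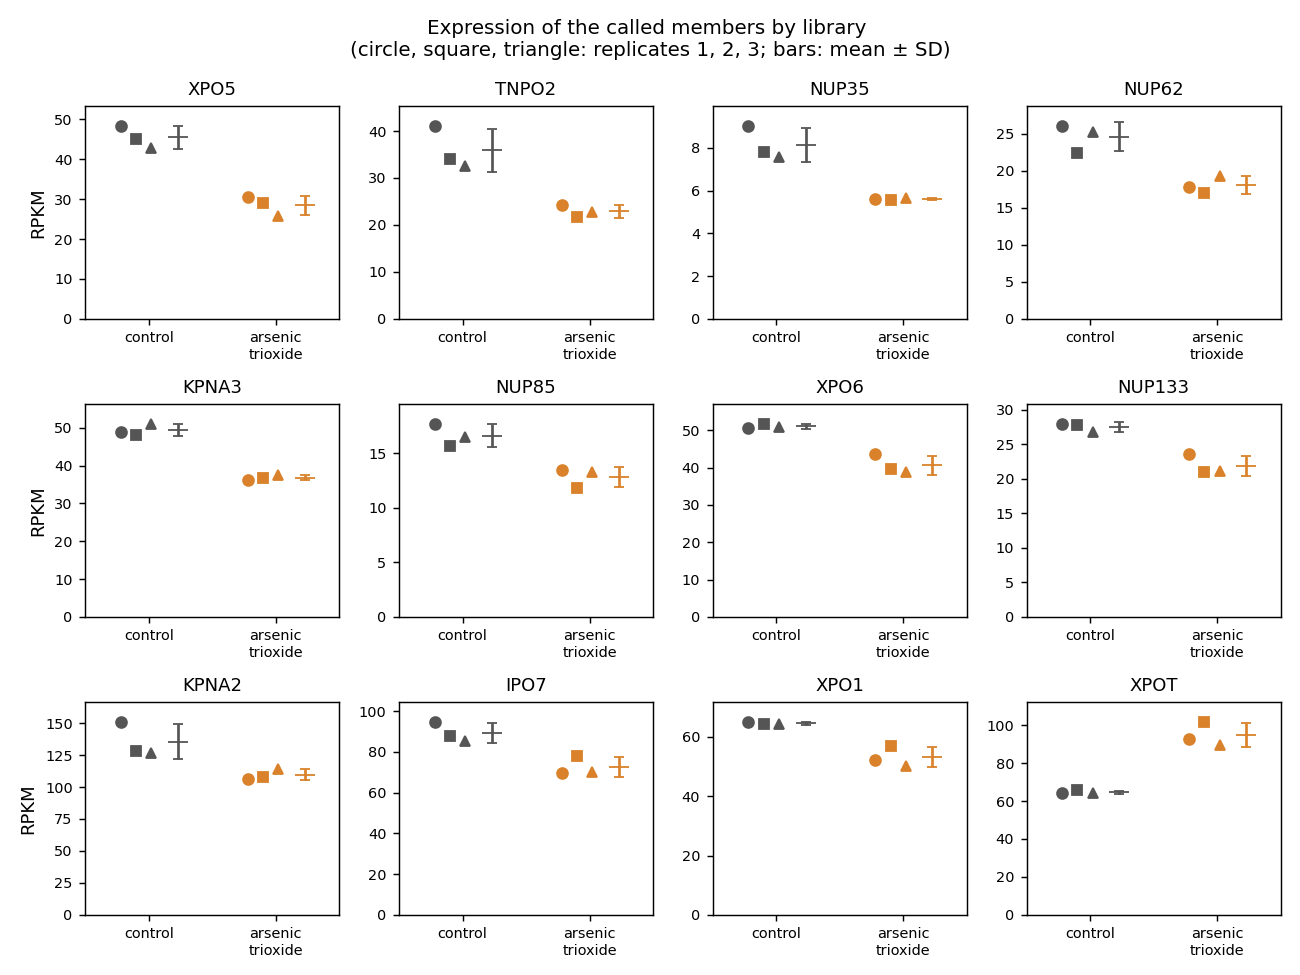
RPKM of the 12 called genes in each library, control in grey and arsenic trioxide in orange, with the mean and SD (n = 3) beside the points and every axis starting at 0. The 2 groups do not overlap in any panel, and XPOT is the panel in which the treated libraries are higher. The genes were picked on these same values, so the separation adds no support to the calls.

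Among nucleoporins 4 of 21 were lower (19.0%) and none higher, with 17 of the 21 log2 fold changes below 0 and a median of -0.16. Over all tested genes 13.4% were lower, 12.0% higher and 50.3% of values below 0, and over genes averaging 5 RPKM or more 18.4% were lower, near the share of the nucleoporins. The outer ring is built from Y-shaped complexes that coat the membrane curve of the pore, and 2 of its 6 genes fell (33.3%). NUP133 (chromosome 1, 229440260 to 229508341) was at 28.0, 27.8 and 26.7 RPKM in the control libraries and at 23.5, 20.9 and 21.2 RPKM in the treated ones. All treated libraries were lower (-0.32 ± 0.06 SE, adjusted p = 0.0132). NUP85 (chromosome 17, 75205659 to 75235758) was at 17.7, 15.7 and 16.5 RPKM in the control libraries and at 13.5, 11.8 and 13.3 RPKM in the treated ones, again without overlap (-0.35 ± 0.08 SE, adjusted p = 0.0209). The adjusted p of NUP85 was 0.0612 when control replicate 1 was left out, 0.0622 for control replicate 3 and 0.0573 for arsenic trioxide replicate 2. Without both libraries that stand apart, NUP133 and NUP85 both had an adjusted p of 0.0756.

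NUP37, at the edge of the same complex, was at 14.2, 15.1 and 14.4 RPKM in the control libraries and at 13.2, 12.2 and 13.2 RPKM in the treated ones. The groups did not overlap, yet the gene was not called (-0.16 ± 0.07 SE, adjusted p = 0.115). NUP107 had a log2 fold change of -0.15 with groups apart, and NUP160 (-0.03) and NUP43 (0.03) had groups that overlapped. The summed level of the 6 genes was 143 to 147 RPKM in control and 129 to 137 RPKM in treated libraries.

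The inner ring ties the pore to the membrane and to the central channel. In it 1 of 5 genes fell (20.0%, against 13.4% of all tested genes and 18.4% of those averaging 5 RPKM or more). This was NUP35, which binds the membrane and its anchor NDC1 (chromosome 2, 183117513 to 183161680). It was at 9.04, 7.80 and 7.59 RPKM in the control libraries and at 5.63, 5.58 and 5.65 RPKM in the treated ones, from 478 to 739 reads per library. Control replicate 1 was the highest and the treated libraries nearly coincided (-0.46 ± 0.09 SE, adjusted p = 0.0133). Its call was lost only without both libraries that stand apart (adjusted p = 0.0566). NUP155 was at 48.1, 52.8 and 53.2 RPKM in the control libraries and at 46.5, 44.8 and 43.2 RPKM in the treated ones, and NUP188 at 40.0, 36.1 and 37.0 RPKM in the control libraries and at 33.3, 29.2 and 33.5 RPKM in the treated ones. In both the treated libraries lay below the controls without passing the threshold (-0.19 ± 0.06 SE, adjusted p = 0.0596, and -0.23 ± 0.07 SE, adjusted p = 0.0600). NUP155 was called without control replicate 1 (0.0419), NUP188 with the filter at 5 RPKM (0.049), and both were called with limma-voom (0.0325 and 0.0259). NUP93, a scaffold that links the inner ring to the channel, had a log2 fold change of -0.26 with groups apart, and NUP205 one of 0.03 with groups that overlapped.

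Nucleoporins of the central channel carry phenylalanine-glycine repeats that form the barrier and bind carriers. In this group 1 of 4 genes fell (25.0%, against 13.4% of all tested genes and 18.4% of those averaging 5 RPKM or more). This was NUP62 (chromosome 19, 49906825 to 49929763). It was at 26.1, 22.4 and 25.3 RPKM in the control libraries and at 17.8, 17.0 and 19.3 RPKM in the treated ones. The groups were apart, with control replicate 2 the lowest control and arsenic trioxide replicate 3 the highest treated library (a fitted log2 fold change of -0.42 ± 0.08 SE with an adjusted p of 0.0105 by limma-trend). It shares 626 exon bases, 10.4% of its total, with ATF5 on the other strand. ATF5, a transcription factor of the stress response, rose from 11.3 ± 6.65 to 50.2 ± 13.1 RPKM, opposite to NUP62. NUP62 forms a complex with NUP54 and NUP58, and neither of these was called. NUP58 was at 26.8, 24.3 and 25.4 RPKM in the control libraries and at 27.5, 28.0 and 26.6 RPKM in the treated ones, with ranges that overlapped (0.10 ± 0.06 SE, adjusted p = 0.259). NUP54 had a log2 fold change of 0.02 ± 0.06 SE. NUP98, a mobile nucleoporin whose precursor is also cleaved to give a protein of the outer ring, was at 44.6, 42.6 and 41.7 RPKM in the control libraries and at 42.6, 40.9 and 37.9 RPKM in the treated ones. Its groups overlapped as well (-0.08 ± 0.06 SE, adjusted p = 0.358).

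Of the 44 genes, none of those at the cytoplasmic face (NUP214 and NUP88), in the nuclear basket (NUP50 and NUP153) or in the NUP210 pair was called. NUP214, which with NUP88 docks exported complexes on the cytoplasmic side, was at 15.0, 14.0 and 15.1 RPKM in the control libraries and at 11.7, 10.3 and 13.7 RPKM in the treated ones. The groups did not overlap, but the treated libraries were spread (-0.29 ± 0.10 SE, adjusted p = 0.0793), and the gene was called without arsenic trioxide replicate 3 (0.0273) and with limma-voom (0.0198). NUP88 was at 17.9, 18.8 and 18.1 RPKM in the control libraries and at 18.8, 18.0 and 15.8 RPKM in the treated ones, with overlap (-0.06 ± 0.08 SE, adjusted p = 0.593). NUP42, a partner of the export factor GLE1, is listed under its older symbol NUPL2 and so lies outside the 44 genes. It fell from 15.4 ± 0.479 to 11.5 ± 1.01 RPKM (-0.40 ± 0.08 SE, adjusted p = 0.0130).

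Of the basket genes, NUP50, which helps to release cargo from importin alpha, was at 24.4, 23.5 and 23.8 RPKM in the control libraries and at 22.1, 22.4 and 21.3 RPKM in the treated ones, all treated libraries being lower (-0.12 ± 0.05 SE, adjusted p = 0.143). NUP153 was at 74.8, 69.1 and 73.6 RPKM in the control libraries and at 65.4, 64.5 and 70.3 RPKM in the treated ones, and arsenic trioxide replicate 3 reached into the control range (-0.12 ± 0.06 SE, adjusted p = 0.184). The membrane-spanning NUP210, the most abundant nucleoporin here, was at 93.0, 89.4 and 85.1 RPKM in the control libraries and at 82.6, 71.1 and 81.3 RPKM in the treated ones. Its groups were apart (-0.19 ± 0.07 SE, adjusted p = 0.105), and it was called only with limma-voom (0.0493). Its relative NUP210L was at 1.15, 2.53 and 1.78 RPKM in the control libraries and at 0.845, 1.39 and 0.610 RPKM in the treated ones, from as few as 79 reads, with wide overlapping ranges (-0.53 ± 0.23 SE, adjusted p = 0.143) and a call only with limma-voom (0.0323).

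**Figure D3:**
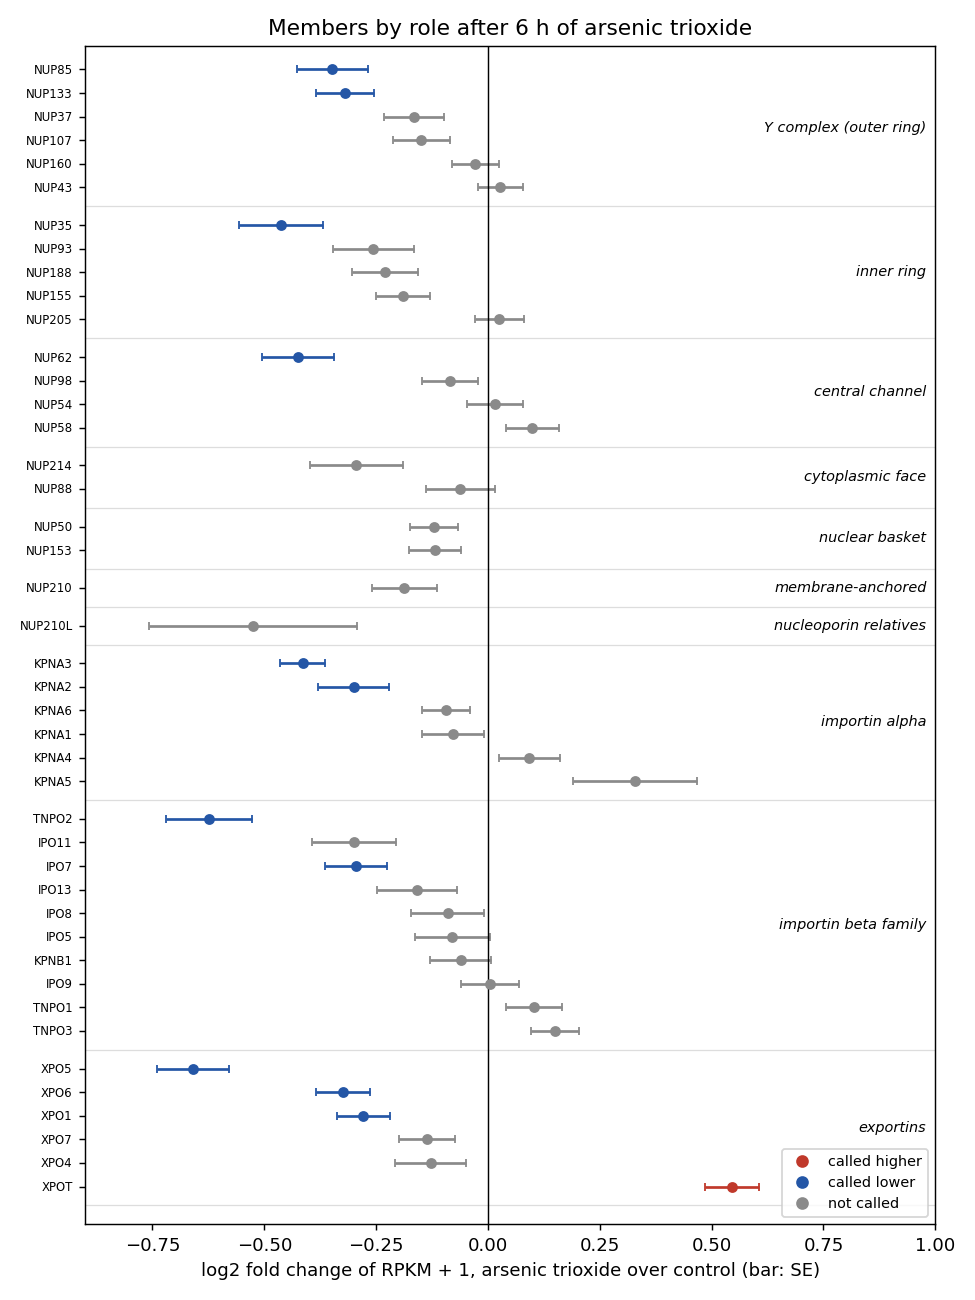
Log2 fold change of RPKM + 1, arsenic trioxide over control, with its SE for the 43 tested genes, grouped by role on the vertical axis and coloured by call (blue lower, red higher, grey not called). The called genes are scattered over the outer ring, inner ring, central channel, both importin families and the exportins, and XPOT at 0.55 is the only red point.

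The ratio between some genes of like role shifted. The pairs given here were chosen after their values were seen, so the ratios are given with no test. The log2 ratio of TNPO2 to TNPO1 was 0.05, -0.05 and -0.14 in the controls and -0.70, -0.90 and -0.80 in the treated libraries. The 2 transportins thus had nearly equal RPKM in control cells, and TNPO2 was the lower after arsenic trioxide. For KPNA3 over KPNA4 the log2 ratio went from 0.98 ± 0.04 to 0.46 ± 0.14 (SD, n = 3 each). For XPOT over XPO5, exportins of 2 classes of RNA, it went from 0.51 ± 0.09 to 1.74 ± 0.12, the widest shift of the 5 pairs. Within the channel complex NUP62 over NUP54 went from 0.36 ± 0.09 to -0.10 ± 0.13, and within the inner ring NUP35 over NUP205 went from -2.85 ± 0.14 to -3.41 ± 0.08. In each pair all treated libraries lay on 1 side of all controls.

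**Figure D4:**
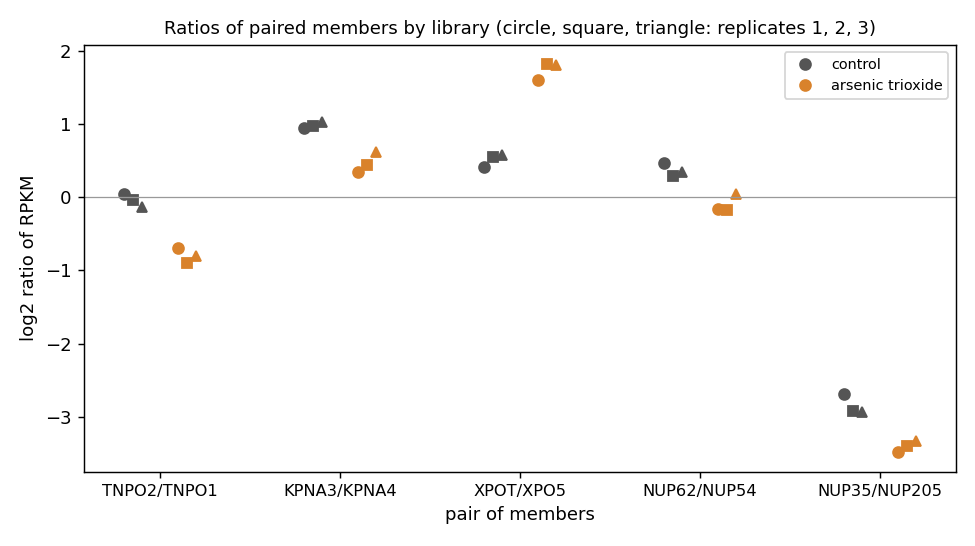
Log2 ratio of RPKM of 5 pairs of genes in each library, control in grey and arsenic trioxide in orange, with marker shapes for replicates 1, 2 and 3. The treated libraries lie above the controls for XPOT over XPO5 and below them in the other 4 pairs.

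Levels per exon length ranged from 0.297 RPKM for IPO4 to 122 RPKM for KPNA2 as means over the 6 libraries, with a median of 28.2 RPKM. The level of IPO4 may be understated, since most of its exon bases lie within exons of other genes. After KPNA2 came KPNB1 at 111 RPKM, IPO5 at 85.2, NUP210 at 83.8, IPO7 at 81.0 and XPOT at 79.7 RPKM, and the means of IPO5, NUP210, IPO7 and XPOT lay closer together than the spread between libraries. Carriers had a median of 35.5 RPKM and nucleoporins one of 22.9 RPKM. Across the 43 tested genes, which share the same 6 libraries, the rank correlation of level with log2 fold change was 0.16, given as a description.

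Together the 44 genes took 1.24% to 1.29% of all counted reads in the control libraries and 1.12% to 1.19% in the treated ones. Arsenic trioxide replicate 3 had the lowest share, 1.12%, and was the lowest treated library in 24 of the 43 tested genes. Control replicate 1 had the highest share, 1.29%, and was the highest control in 23. The median coefficient of variation within a group was 4.04% in control and 6.37% in treated libraries.

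**Figure D5:**
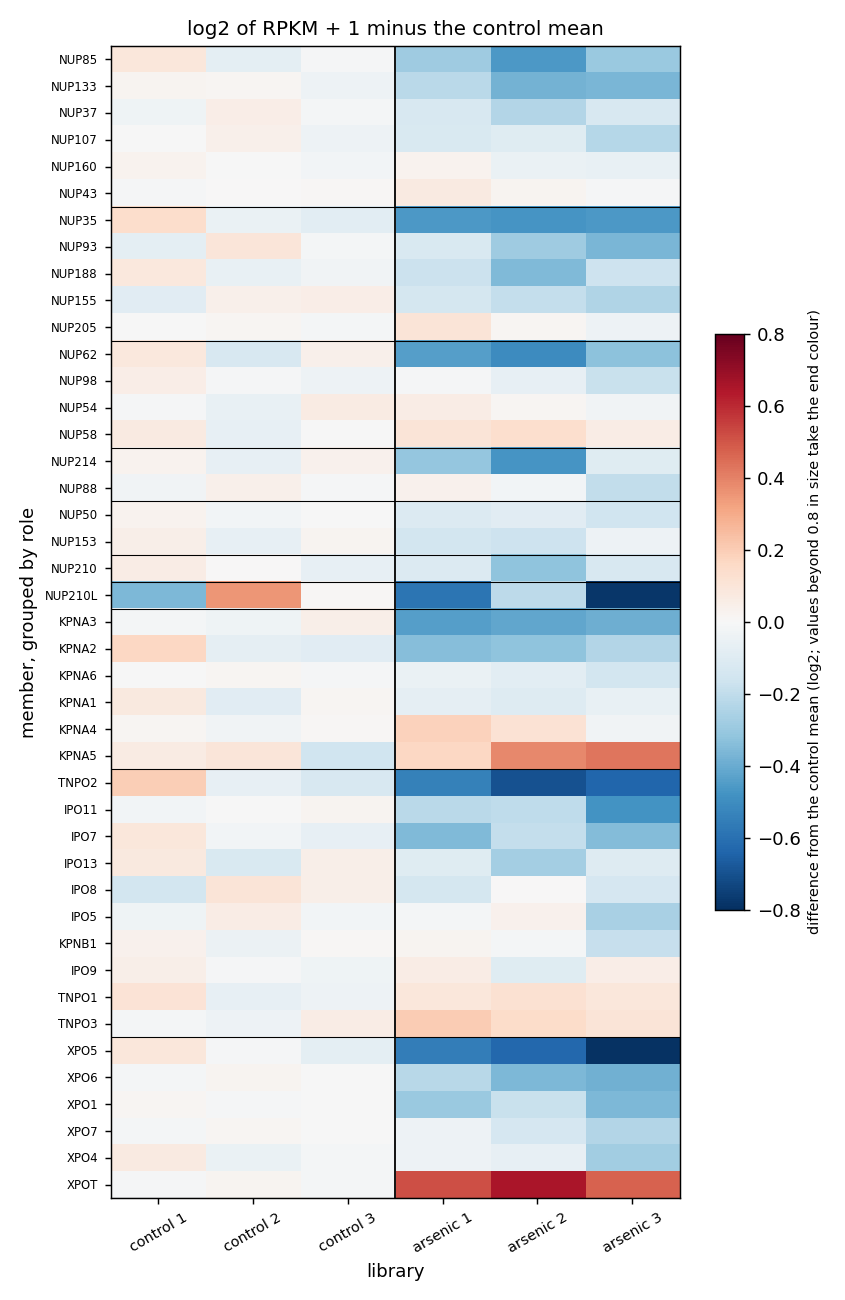
Heat map of log2 of RPKM + 1 minus the control mean for the 43 tested genes (rows, grouped by role) in the 6 libraries (columns), red above and blue below the control mean. XPO5, TNPO2, NUP35, NUP62 and KPNA3 are blue in all 3 treated libraries and XPOT is red in all 3, while NUP210L varies within both groups.

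Other genes of the same pathway were taken from lists drawn up by role. Among pore proteins with other names 2 of 11 fell (18.2%) and none rose, with a median log2 fold change of 0.02. Of all tested genes 13.4% fell. All 11 averaged over 5 RPKM, and of all genes averaging 5 RPKM or more 18.4% fell, near the share of this list. SEH1L, a subunit of the outer ring, fell from 17.2 ± 1.15 to 12.0 ± 0.229 RPKM (-0.49 ± 0.07 SE, adjusted p = 0.00425), and NDC1, the membrane anchor bound by NUP35, fell from 50.6 ± 1.97 to 40.4 ± 3.07 RPKM (-0.32 ± 0.07 SE, adjusted p = 0.0172). AHCTF1, which starts pore assembly on chromatin, and RANBP2, the large filament protein of the cytoplasmic face, were not called (-0.15, adjusted p = 0.0758, and 0.12, adjusted p = 0.153).

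Of the Ran cycle and its other carriers 3 of 7 measured genes fell (42.9%) and none rose, with a median of -0.18. Of all tested genes 13.4% fell, and of those averaging 5 RPKM or more 18.4% did. RCC1, which loads Ran with GTP in the nucleus, fell from 78.9 ± 1.20 to 53.6 ± 4.96 RPKM (-0.55 ± 0.07 SE, adjusted p = 0.00319). The Ran-binding protein RANBP1 fell from 42.7 ± 1.49 to 36.7 ± 1.72 RPKM (-0.21 ± 0.06 SE, adjusted p = 0.0363), and RAN itself fell from 150.0 ± 3.26 to 133 ± 2.44 RPKM (-0.17 ± 0.05 SE, adjusted p = 0.0416). CSE1L, the exportin that returns importin alpha to the cytoplasm, was at 139 ± 5.31 and 121 ± 7.00 RPKM (-0.20 ± 0.06 SE, adjusted p = 0.0564).

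In the messenger RNA export list 3 of 21 genes fell (14.3%) and 2 rose (9.52%), with a median of -0.09. These shares are near the 13.4% and 12.0% of all tested genes. The 2 partners of the export receptor NXF1 went opposite ways: NXT1 fell from 27.2 ± 1.05 to 16.0 ± 1.12 RPKM (-0.73 ± 0.07 SE, adjusted p = 0.00111) and NXT2 rose from 5.46 ± 0.162 to 9.71 ± 2.17 RPKM (0.71 ± 0.14 SE, adjusted p = 0.0133). PCID2 fell (-0.49), as did the helicase DDX39A (-0.30), and ZC3H11A, a zinc finger protein of the export complex, rose (0.40). DDX39B, the close relative of DDX39A, was at 29.5 ± 1.99 and 34.5 ± 1.47 RPKM and not called (0.22 ± 0.07 SE, adjusted p = 0.0535).

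The library kit does not mark strand, so reads on exon bases shared by 2 genes cannot be assigned to either. The processing notes do not say whether such reads were counted or left out. In the annotation 16 of the 44 genes share exon bases with another listed gene. Without these 16, 8 of 28 tested genes fell (28.6%, against 13.4% of all tested genes) and 1 rose (3.57%, against 12.0%). Beside the bases shared with ATF5, NUP62 shares 336 with IL4I1. XPO5 shares 348 bases, 4.08%, with POLR1C on the other strand, which fell from 22.5 ± 2.1 to 12.4 ± 0.547 RPKM. NUP88, not called, shares 520 bases with RPAIN and 468 with RABEP1, and IPO11 shares 1279 bases with LRRC70, which was under 1 RPKM. IPO11 also shares 428 bases, 5.68%, with KIF2A on the same strand, which was at 47.2 ± 2.12 and 46.7 ± 4.67 RPKM in control and treated libraries and not called. The part of shared bases in these results was not tested. Pseudogene copies listed in their own right differed in level. XPOTP1 was at 0.178 ± 0.058 and 0.172 ± 0.106 RPKM in control and treated libraries, and IPO7P2 at 0.182 ± 0.0568 and 0.270 ± 0.140 RPKM. TNPO1P1 was at 1.42 ± 0.432 and 2.02 ± 0.863 RPKM. IPO5P1 was at 6.32 ± 0.934 and 6.81 ± 0.377 RPKM, where the median of all tested genes was 5.72 RPKM.

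The authors' deposited table gives a negative log2 fold change at an adjusted p under 0.05 for 17 of the 44 genes (38.6%) and a positive one for 2 (4.55%). The shares of the 23393 genes with an adjusted p in the authors' deposited table were 12.7% and 12.6%. All 12 genes called here are called in the same direction there. The authors' deposited table also called IPO4, NUP214, IPO11, NUP93, NUP188 and NUP210L lower and KPNA5 higher. Its log2 fold changes for the ends of the range were 0.54 for XPOT and -0.69 for XPO5, apart from IPO4 (-1.36) and NUP210L (-0.95), the 2 genes at the lowest RPKM.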

How the data were processed

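Total RNA of 3 control and 3 treated NB4 libraries was freed of ribosomal RNA and prepared with a kit that keeps no strand, per the labels' protocols. HISAT2 2.1.0, HTSeq, DESeq2 and the build hg38 stand in the submitters' processing notes, with no parameters. Duplicate reads were removed, per the file headers. The authors deposited RPKM per gene and library. Beside it the authors deposited p-values, raw and adjusted, a test score, log2 fold changes with their errors and a mean normalized signal, quoted here only as theirs. The direction of the deposited fold change was read from the values.

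The 16803 genes averaging 1 RPKM or more were tested on log2 of RPKM + 1 by limma (version 3.58.1, trend option, R 4.3.3) with a treatment term alone, and an adjusted p (Benjamini-Hochberg) under 0.05 was a call. The test was also run on simulated reads. That run used a fixed spread for all genes and far fewer changed genes, so it says nothing on the calls made here. Reads were recovered with exon lengths of GENCODE 29, settled with the deposited mean: all 6 values came out whole within 0.01 reads for 93.0% of genes from that length and for 100.0% once settled. The table lists genes with at least 21 reads over the 6 libraries. Coordinates are from GENCODE 29 and RefSeq, both on GRCh38 (hg38), counted from 1.

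The genes, role lists and tests were chosen with earlier results of these data known. In each role group up to 3 tested genes with the smallest p-values are given by library, all called genes are named, and up to 4 genes per pathway list. Neighbouring genes, pseudogenes, NUPL2, DDX39A, DDX39B and some genes not called were named after their values were seen. The alternatives tried were pseudocounts of 0.1 and 5, no filter and a filter at 5 RPKM, median-ratio and upper quartile factors, the replicate number as a block, limma-voom on recovered reads, leaving out each library and, chosen after seeing the data, leaving out both libraries that stand apart.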

Additional observations from a re-analysis of the deposited data

How the results depend on the processing

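Of the 11 lower and 1 higher pore and carrier genes, the counts under pseudocounts of 0.1 or 5, no filter, the filter at 5 RPKM and median-ratio factors stayed at 1 higher and 11 to 13 lower. The filter at 5 RPKM gave the 13 lower (31.7%), where 20.2% of all genes tested were lower. Limma-voom on recovered reads gave 2 higher and 18 lower, and upper quartile factors 2 higher (4.65%) and 10 lower (23.3%). With those factors 14.3% of all genes were higher and 11.8% lower. Leaving out 1 library gave 1 higher and 8 to 10 lower genes, and leaving out both control replicate 1 and arsenic trioxide replicate 3 gave 1 higher and 5 lower. Among all tested genes, 2021 higher and 2252 lower, limma-voom gave 2507 and 2738, and leaving out 1 library gave 1331 to 1525 higher and 1427 to 1908 lower, the fewest higher without arsenic trioxide replicate 1 or control replicate 3 (1341) and the fewest lower without control replicate 2 or 3 (1487), and leaving out both libraries gave 1200 and 1484. Fewer samples enter these fits. XPOT, XPO5, KPNA3, TNPO2 and NUP62 were called under all 15 alternatives. With the replicate number as a block 1 gene was higher (2.33%) and 9 lower (20.9%), against 8.69% and 9.62% of all genes. IPO7 (adjusted p = 0.0562) and KPNA2 (0.0769) were no longer called in that fit. Same-numbered libraries had correlations of -0.09, 0.15 and -0.08 between their deviations from the group means, and control replicate 1 correlated best with arsenic trioxide replicate 3 (0.22), so the numbers were not taken as pairs. No called gene changed direction. Of the genes near 0, NUP160 did with upper quartile factors (0.015) and without both libraries (0.0013), and KPNB1 without both (0.018). Leaving out 1 library gave log2 fold changes of -0.14 to 0.0092 for IPO5, -0.023 to 0.057 for IPO9, -0.10 to 0.0013 for KPNB1, -0.014 to 0.058 for NUP205, -0.013 to 0.049 for NUP54 and -0.11 to 0.0068 for NUP88. IPO5, KPNB1 and NUP88 turned without arsenic trioxide replicate 3, NUP205 without arsenic trioxide replicate 1, NUP54 without control replicate 2 or arsenic trioxide replicate 1, and IPO9 without control replicate 2 or 3 or arsenic trioxide replicate 1 or 3. The causes were not tested. With 3 libraries a group, small differences in genes not called here were not detectable.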
